A study of Mus musculus with 12 samples.

Results

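The genes described here are the 9 members of MHC class II antigen presentation that the panel lists as H2-Aa, H2-Ab1, H2-Eb1, H2-Dma, H2-DMb1, H2-DMb2, H2-Ob, Cd74 and Ciita. They were taken by symbol from the 770 genes of a mouse immune panel (nCounter PanCancer Immune Profiling), in which barcoded probes for each gene are counted directly in total RNA. Every tumor grew under the skin of a female Balb/c mouse, bought as a young adult, from implanted A20 cells, a B-cell lymphoma line that arose in the same strain. About 7 days later 4 tumors received PBS, 4 received GLA-SE (10 µg of the TLR4 agonist GLA in 50 µl of a 2% stable emulsion, called G100 in the study) and 4 received the emulsion alone (SE). Each was injected every other day, 3 times in all, and collected 2 h after the last injection, so all groups share the cell line, the number of injections and the time. The labels name a separate mouse for each tumor. All 12 tumors come from a single cell line in hosts with an intact immune system, so each RNA sample holds lymphoma cells and host cells together.

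MHC class II molecules are pairs of an alpha and a beta chain that carry peptides from endosomes to the cell surface, where CD4 T cells read them. The invariant chain, encoded by Cd74, holds new class II molecules and leads them to endosomes, DM exchanges the last piece of the invariant chain for a peptide, and DO, which is made mainly by B cells, restrains DM. B cells, dendritic cells and macrophages are the main cells that make class II, and CIITA is the transactivator that class II promoters need. A20 cells, being B cells, express class II themselves. The lymphoma cells and the infiltrating cells therefore both contribute to the counts, and in bulk samples a change in the number of such cells and a change in the RNA of each cell cannot be told apart.

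Class II promoters are read through an X box and a Y box, short elements at a nearly fixed distance that bind the factors on which CIITA sits. The promoter sequences are shown because members that share these elements are compared below, and those in which a search found them are printed with the matches in capitals. They come from RefSeq windows of GRCm38.p6 that run from 250 bases before to 50 bases after a start site. That genome is of the C57BL/6J strain, whose class II haplotype (b) differs from that of Balb/c and A20 (d). All 9 members matched a RefSeq symbol and 6 of them had a window searched. No window was available for H2-Ab1 and Ciita, and Cd74 was left out of the search. The 6 are therefore not an unselected set, and whether the promoters of the other members hold these elements was not tested. The X box was searched as AAC, any 2 bases and ATGATG, and the Y box as TGATTGG, on both strands, and these letters were chosen after the windows had been read. Each stretch of 80 bases below reads 5′ to 3′ on the strand of its gene, with the X box first.
H2-Aa, chr17:34287849-34287928, minus strand: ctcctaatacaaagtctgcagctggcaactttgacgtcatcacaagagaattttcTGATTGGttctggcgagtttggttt
H2-Eb1, chr17:34305751-34305830, plus strand: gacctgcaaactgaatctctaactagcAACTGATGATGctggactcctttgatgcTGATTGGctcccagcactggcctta
H2-DMb1, chr17:34153073-34153152, plus strand: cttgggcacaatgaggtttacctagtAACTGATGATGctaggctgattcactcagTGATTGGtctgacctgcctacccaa
H2-DMb2, chr17:34145102-34145181, plus strand: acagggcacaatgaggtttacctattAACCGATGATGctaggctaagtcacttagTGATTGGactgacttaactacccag
H2-Ob, chr17:34238791-34238870, plus strand: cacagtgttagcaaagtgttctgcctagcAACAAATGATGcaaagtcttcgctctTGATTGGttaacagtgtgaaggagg

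Both elements were found in 4 members, with 17 bases between them in H2-Eb1, 18 in H2-DMb1, 18 in H2-DMb2 and 15 in H2-Ob. In these 4 windows the Y box starts 59 to 92 bases before the start site. The H2-Aa window held the Y box, 50 bases before the start, and no match to the X box letters. Neither of the 2 windows of H2-Dma held a match, which says only that these letters are absent there. Of 32851 promoter windows of this length in the table, 7.82% held the Y box letters, 0.137% the X box letters and 0.0274% both. These windows include those of the members. Since the letters were chosen after reading the windows, the shares do not measure an enrichment in the members. H2-DMb1 and H2-DMb2 are adjacent close copies, and whether either probe also binds RNA of the other gene was not tested.

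The total count per tumor was 810260 to 1612415. Each tumor was scaled by 16 of the 20 reference genes of the panel (their geometric mean), and a normalized count below is a deposited count after that scaling. Probes differ in efficiency, so normalized counts compare tumors for a given gene and not genes with each other. Before any comparison, 3 tumors stood apart. GLA-SE 3 was the highest GLA-SE tumor for all 9 members, and PBS 2 was the lowest PBS tumor for all 9. SE 4 had the lowest reference level of all, a geometric mean of 959 counts over the 20 reference genes, so its counts were scaled up most. All 3 were kept, and values without GLA-SE 3 or SE 4 are given where they move a comparison.

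On this scale the group means of all 9 members had the same order, lowest with PBS, intermediate with SE and highest with GLA-SE. The next paragraphs give the tumors, beginning with the chains that form the surface molecules I-A and I-E.

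H2-Aa encodes the alpha chain of I-A. Its normalized counts were 42967, 34651, 42672 and 41347 in the PBS tumors, 51610, 52887, 59209 and 55927 in the SE tumors, and 67890, 70885, 110946 and 62406 in the GLA-SE tumors. The 3 groups did not overlap, and the spread was widest with GLA-SE (SD 22222, n = 4) because of the third tumor. H2-Ab1 encodes the beta chain of I-A. It was counted at 12556, 9654, 11890 and 11440 with PBS, at 14445, 14690, 17576 and 15752 with SE, and at 20146, 22221, 34034 and 20114 with GLA-SE. Again each GLA-SE tumor exceeded each SE tumor, and each SE tumor exceeded each PBS tumor. H2-Eb1, the beta chain of I-E, gave 9274, 6715, 8724 and 8300 with PBS, 9251, 9221, 12798 and 13229 with SE, and 16581, 19052, 23447 and 14255 with GLA-SE. Its SE tumors fell into a lower pair within the PBS range (SE 1 and 2) and a higher pair (SE 3 and 4), all under the lowest GLA-SE tumor.

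Cd74, the invariant chain, had the normalized counts 76869, 69205, 81097 and 75672 with PBS, 92739, 100238, 104233 and 89794 with SE, and 117405, 125758, 208551 and 118610 with GLA-SE. The groups were separate, with coefficients of variation of 6.50% and 6.87% in the PBS and SE tumors against 31.0% in the GLA-SE tumors, where the third tumor was far above the others. Ciita, the transactivator, was counted at 442, 276, 425 and 418 with PBS, at 576, 555, 537 and 470 with SE, and at 693, 766, 1346 and 680 with GLA-SE. The second PBS tumor was far below the other PBS tumors and the third GLA-SE tumor far above the other GLA-SE tumors, and no group overlapped another.

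Among the genes of peptide exchange, H2-Dma, the alpha chain of DM, gave 2816, 2110, 2492 and 2750 with PBS, 3015, 3168, 3101 and 2477 with SE, and 3899, 4330, 6552 and 4051 with GLA-SE. H2-DMb2, a beta chain of DM, gave 4369, 3799, 4216 and 4465 with PBS, 5469, 5797, 4690 and 3730 with SE, and 5828, 6432, 13276 and 6918 with GLA-SE. For both genes the fourth SE tumor lay within or under the PBS range while the GLA-SE tumors lay above all others. H2-DMb1, the alternative beta chain of DM, was close to background, with deposited counts of 11 to 36 against the threshold of 20 in the study's methods. Its normalized counts were 26.5, 14.0, 17.5 and 19.1 with PBS, 22, 21.5, 33.6 and 22.2 with SE, and 32.9, 31.2, 39.7 and 31.7 with GLA-SE. The third SE tumor lay among the GLA-SE tumors and the other SE tumors in the PBS range. H2-Ob, the beta chain of DO, had 875, 655, 837 and 870 with PBS, 1095, 961, 967 and 821 with SE, and 997, 1072, 1732 and 903 with GLA-SE. The H2-Ob groups lay closest together, since the lowest GLA-SE tumor exceeded the highest PBS tumor only narrowly and the SE tumors overlapped both groups.

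**Figure D1:**
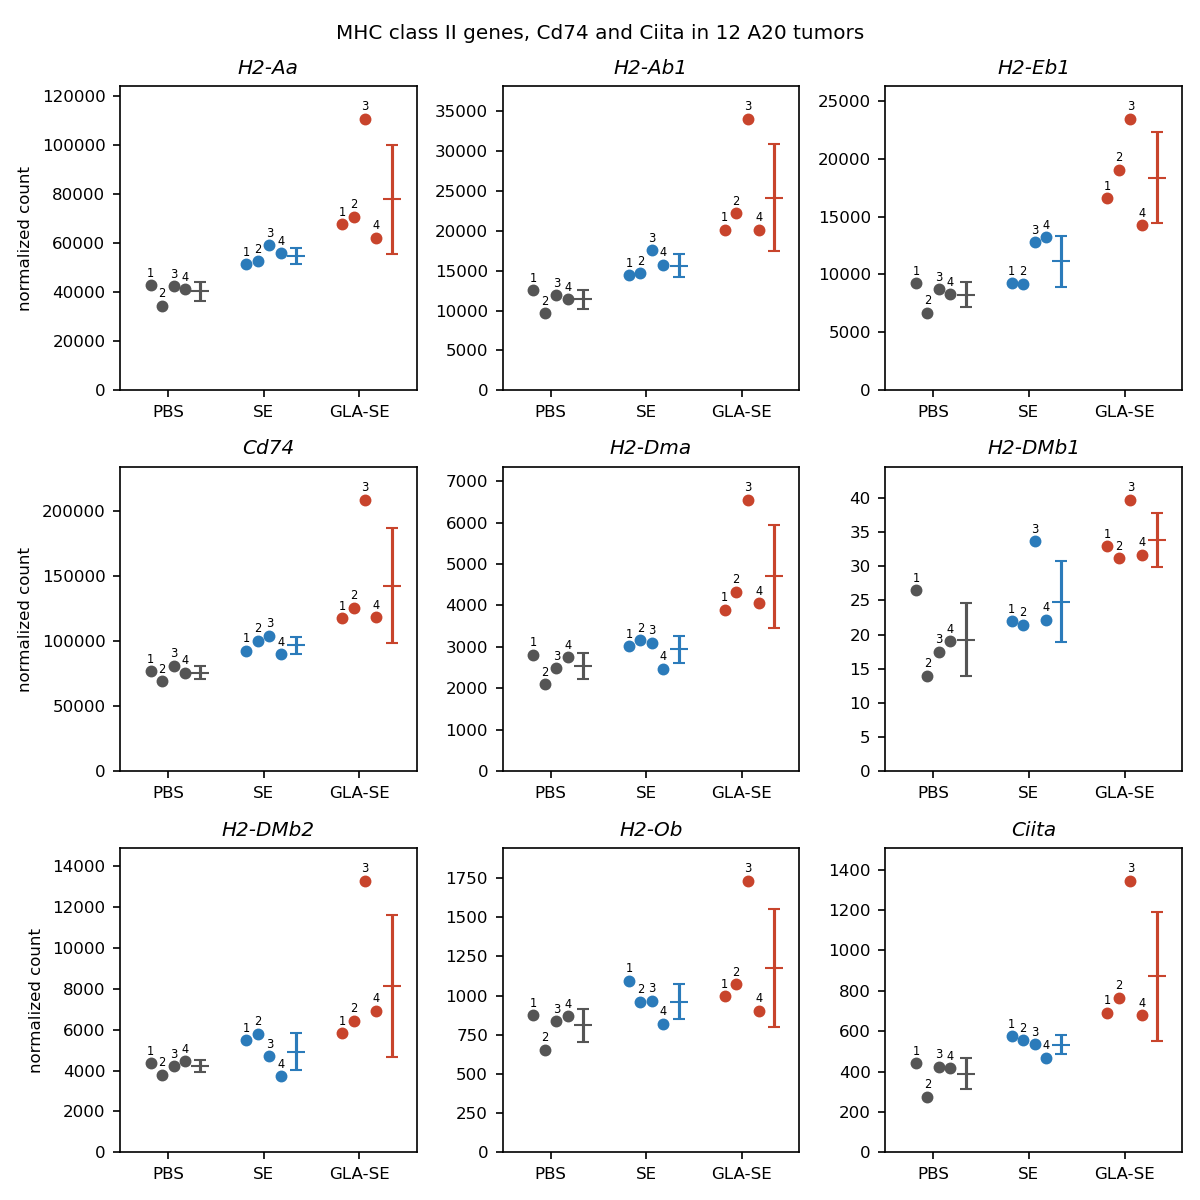
Normalized counts (vertical axis, linear, from 0) of the 9 genes in each of the 12 A20 tumors, with the replicate number above each point and the mean ± SD of each group (n = 4) beside it. The third GLA-SE tumor is the highest GLA-SE tumor in all 9 panels and the second PBS tumor the lowest PBS tumor in all 9, and the GLA-SE tumors lie above the PBS tumors throughout, on the scale of the reference genes.

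The comparison of GLA-SE with PBS asks what the complete agent did to the tumor. Relative to the reference genes all 9 members rose, the chains of I-A and I-E by 1.93-fold to 2.22-fold, Cd74 by 1.88-fold and Ciita by 2.23-fold, whereas scaling to the panel median or to monocyte and macrophage genes turned all 9 downward (below). H2-Eb1 rose by 1.15 ± 0.17 on the log2 scale (fold change ± SE, edgeR adjusted p = 0.000672), H2-Ab1 by 1.08 ± 0.19 (adjusted p = 0.00138) and H2-Aa by 0.95 ± 0.19 (adjusted p = 0.00278). Ciita rose by 1.16 ± 0.26 (adjusted p = 0.00485) and Cd74 by 0.91 ± 0.20 (adjusted p = 0.00396). Of the DM genes, H2-Dma rose by 0.89 ± 0.18 (adjusted p = 0.00327), H2-DMb2 by 0.95 ± 0.25 (adjusted p = 0.00956) and H2-DMb1, at its low counts, by 0.81 ± 0.23 (adjusted p = 0.0120). H2-Ob had the lowest change of the 9 members, 0.54 ± 0.21, and passed narrowly (adjusted p = 0.0490). That call was lost without any one of PBS 1, 2, 3 and 4 or GLA-SE 2 and 3, with log2 fold changes from 0.29 (without GLA-SE 3) to 0.65 over the 8 fits that each leave out a tumor. It was also lost with limma, all 20 reference genes, all 12 tumors in a single fit, no rescaling or Benjamini-Yekutieli adjustment. That adjustment left 6 of the 9 calls, since H2-DMb1 and H2-DMb2 were lost with it too.

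These 9 calls of 9 stand beside a panel in which 68.4% of the 750 tested genes were called higher (513) and 0.4% lower (3) in GLA-SE tumors, so a called member was the usual case. Likewise all 9 members, and 63.7% of the panel, had every GLA-SE tumor above every PBS tumor. The members' median log2 fold change was 0.95 (0.54 to 1.16), beside a median of 0.90 over all tested genes, and 6 of the 9 lay above that median (3 of 9 without GLA-SE 3, and 5 to 7 without any other tumor). H2-Eb1 and Ciita exceeded it by 0.25 and 0.26, and H2-Ob was 0.36 under it. The other 8 members passed the threshold whichever tumor was left out. Without GLA-SE 3 the changes became smaller, with Cd74 at 0.67, H2-DMb2 at 0.60 and Ciita at 0.87, and the panel median fell to 0.75.

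The comparison of SE with PBS addresses what the emulsion did without GLA. Its differences were above 0 for all 9 members on the reference scale, and none of the 9 passed the adjusted threshold in edgeR, as was the case for the whole panel (0 of 750, or 0%). At an unadjusted p under 0.05 the count was 5 of the 9 members, with 17.1% of the panel higher at that level. The log2 fold changes were 0.46 ± 0.13 for H2-Ab1, 0.45 ± 0.19 for Ciita, 0.44 ± 0.12 for H2-Aa, 0.43 ± 0.18 for H2-Eb1 and 0.35 ± 0.12 for Cd74 (each with an edgeR adjusted p of 0.256). The remaining values were 0.36 ± 0.29 for H2-DMb1, 0.25 ± 0.15 for H2-Ob, 0.22 ± 0.16 for H2-DMb2 and 0.21 ± 0.14 for H2-Dma. In 4 members (H2-Aa, H2-Ab1, Cd74 and Ciita) each SE tumor was above each PBS tumor, which 8% of the panel also showed. The exact permutation test gave p = 0.0286 for each of these 4, the smallest that 4 tumors against 4 allow (two-sided, 70 assignments).

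The members' median in SE tumors was 0.36 (0.21 to 0.46) beside 0.51 over all tested genes, and 0 of 9 lay above it. This position rested on SE 4, without which the panel median was 0.20, the members' median 0.39, and all 9 lay above the panel. Without any other tumor 0 or 1 member did so, with limma 4, and under the other scalings 0 (B cell) to 9 (monocyte and macrophage). DESeq2 with the same reference size factors called 3 members higher (H2-Aa, H2-Ab1 and Cd74) in a panel with 47 genes higher and 6 lower, while DESeq2 with its own size factors and limma called 0 members. Under other scalings 5 members reached values below 0, none beyond −0.093 (H2-Dma without rescaling), and the other 4 (H2-Aa, H2-Ab1, Cd74 and Ciita) stayed above 0 under each.

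GLA-SE against SE compares emulsion with GLA to emulsion alone. The emulsion strength and volume are given for the GLA-SE tumors only, so an equal dose of emulsion is not established. All 9 members had higher means with GLA-SE on the reference scale, by 0.29 ± 0.24 (H2-Ob) to 0.72 ± 0.30 (H2-DMb2) on the log2 scale, and lower ones on the panel-median and monocyte and macrophage scales. None passed the adjusted threshold in edgeR. The panel had 16 genes called higher (2.13%) and 0 lower. At an unadjusted p under 0.05 the members counted 5 of 9, with 17.5% of the panel higher at that level. In 7 of the 9, each GLA-SE tumor exceeded each SE tumor, beside 14.7% of the panel. H2-DMb1 and H2-Ob were the members whose groups overlapped. H2-Eb1 differed by 0.72 ± 0.22 (edgeR adjusted p = 0.147), H2-Dma by 0.68 ± 0.21 (0.147), H2-Ab1 by 0.63 ± 0.22 (0.167) and Ciita by 0.70 ± 0.26 (0.212).

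In this comparison all 9 members lay above the panel median of 0.25, and their own median was 0.63. This too rested on SE 4, without which the panel median was 0.63 and 2 members (H2-Eb1 and Ciita) lay above it, with a members' median of 0.61. With neither GLA-SE 3 nor SE 4, an alternative chosen after seeing the data, only H2-Eb1 exceeded the panel median of 0.50, and H2-Ob was at −0.025. Under the other scalings 1 (monocyte and macrophage) to 9 (B cell) members exceeded the panel median. Without GLA-SE 3 alone the difference of H2-Aa fell from 0.51 to 0.29, that of H2-DMb2 from 0.72 to 0.38 and that of H2-Ob from 0.29 to 0.043. DESeq2 with reference size factors called 3 members higher (H2-Ab1, H2-Eb1 and H2-Dma) in a panel with 101 genes higher and 7 lower, and edgeR with all 12 tumors in a single fit called the same 3 with 77 higher and 2 lower. Leaving out SE 4 raised the panel's count of higher genes from 16 to 104, and without GLA-SE 2 it fell to 4, but the members' count was 0 whichever tumor was left out. The difference between the effects of GLA-SE and SE is this comparison itself, and the 3 comparisons share their tumors pairwise and are not independent.

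**Figure D2:**
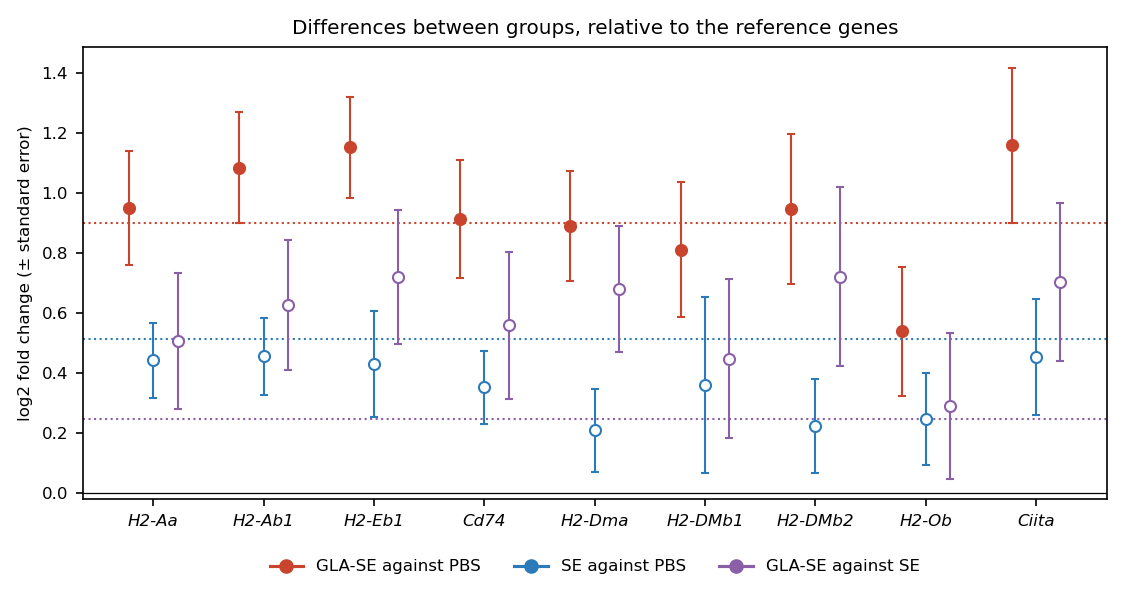
Log2 fold change ± standard error (edgeR, vertical axis) of each of the 9 genes in the 3 comparisons, relative to the reference genes, with filled points for an adjusted p under 0.05 and dotted lines at the median of the 750 tested genes in the comparison of the same colour. The members straddle the panel median in GLA-SE against PBS (0.90), lie under it in SE against PBS (0.51) and above it in GLA-SE against SE (0.25), but without SE 4 all 9 lie above it in SE against PBS (0.20) and 7 of 9 under it in GLA-SE against SE (0.63), and under panel-median or monocyte and macrophage scaling the GLA-SE differences turn downward.

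The direction in GLA-SE against PBS depended on the scale, so the members were also set against other scales. Relative to 10 B cell genes (Cd79b, Ms4a1, Pax5 and others), which A20 cells share with normal B cells, the log2 fold changes were 0.54 to 1.16 and all 9 passed. Without rescaling they were 0.22 to 0.84 and 7 passed. With TMM scaling, which assumes that most genes do not change, they were −0.26 to 0.36, and 2 passed as higher (H2-Ab1 and H2-Eb1). Scaled to the panel median in each tumor all 9 were lower, by −0.16 to −0.79, and 4 passed as lower (H2-Aa, Cd74, H2-Dma and H2-Ob). Scaled to 10 monocyte and macrophage genes all 9 were lower and passed, at −0.77 to −1.40. On the reference scale each of those 10 genes rose by more (1.37 to 3.71) than any member. The downward direction on their scale thus follows from the choice of scale and is no separate result about the members. Across these scales H2-Eb1 and Ciita stayed at the top and H2-Ob at the bottom, since a scale moves all genes of a tumor together. The median of all 750 genes moved from 0.90 to 0.92, 0.61, 0.13, −0.40 and −1.01 under these 5 scales. The split of panel calls moved with it, from 513 higher and 3 lower to 193 and 133 under TMM, 61 and 307 under the panel median and 22 and 525 under the monocyte and macrophage scale.

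**Figure D3:**
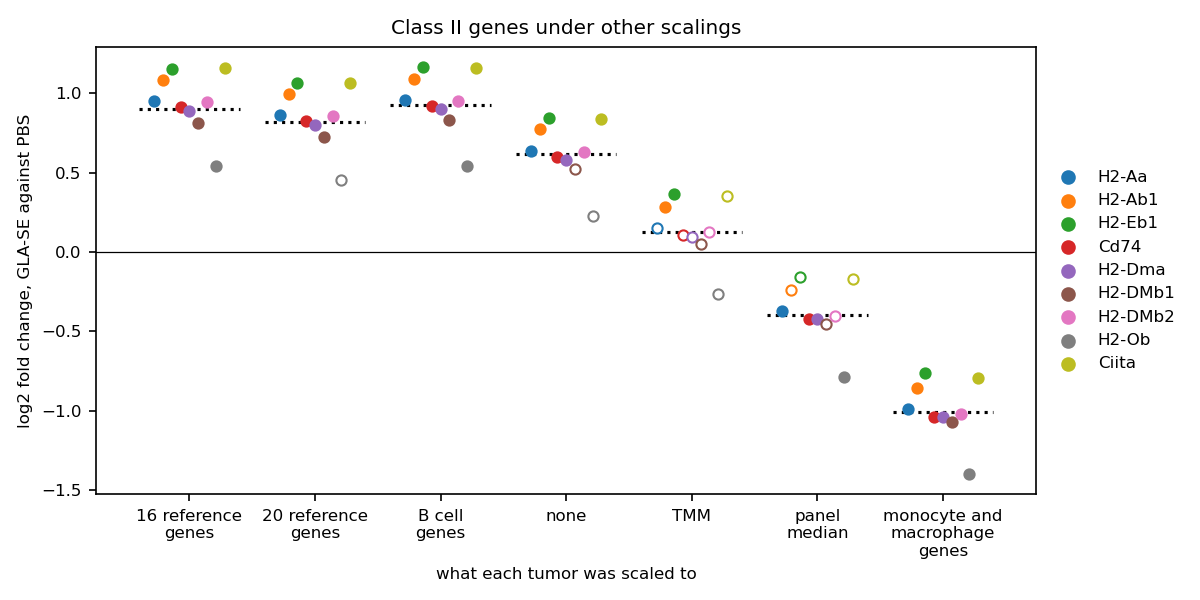
Log2 fold change of each of the 9 genes, GLA-SE against PBS (vertical axis), under 7 ways of scaling the tumors (horizontal axis), with filled points for an adjusted p under 0.05 and a dotted line at the median of the 750 tested genes. The members stay near the panel median under each scaling, positive on the reference, B cell and unscaled counts and negative on the panel-median and monocyte and macrophage scales, with H2-Ob lowest each time.

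The markers of the cells that could supply class II moved as follows on the reference scale. The summed B cell list was 21962 to 25223 normalized counts in PBS tumors, 18096 to 21247 in GLA-SE tumors and 15222 to 25227 in SE tumors. Ms4a1 and Cd79b, which reached 13223 and 8823 deposited counts, weigh most in this sum. By mean log2 normalized count the groups overlapped. The list was at 9.95 to 10.09 with PBS, 9.84 to 10.12 with GLA-SE and 9.67 to 10.12 with SE. In GLA-SE against PBS 0 of the 10 B cell genes rose and 2 fell, Cd79b by 0.41 and Ms4a1 by 0.44 on the log2 scale. The list's median change was −0.02. The summed monocyte and macrophage list was 29160 to 37410 with PBS, 84575 to 125438 with GLA-SE and 24491 to 107371 with SE. All 10 of its genes rose in GLA-SE tumors, with a median of 1.63, beside the members' 0.95 and the panel's 0.90. Of the dendritic cell list, 2 of 5 genes rose (Itgax by 0.92 and CD209e by 0.87), and its sum was 661 to 799 with PBS, 864 to 1251 with GLA-SE and 788 to 1015 with SE. T cell genes rose in 3 of 7, neutrophil genes in 3 of 7, and endothelial and fibroblast genes in 7 of 7. All these counts stand beside 68.4% of the panel called higher. The median change was 0.29 for the dendritic cell list, 0.86 for T cells, 0.61 for neutrophils and 0.98 for endothelium and fibroblasts. No marker of the 6 lists was at 0 in any tumor. The part of these cells in the change of class II genes was not tested.

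By mean log2 normalized count the spread within a group was widest among the SE tumors for each of these lists. By sum the GLA-SE tumors spread more widely in the neutrophil and dendritic cell lists. SE 1 and 2 had 24491 and 30969 summed monocyte and macrophage counts, and SE 3 and 4 had 73498 and 107371. H2-Eb1 was higher in the latter pair (12798 and 13229 against 9251 and 9221), as were H2-Aa, H2-Ab1 and, narrowly, H2-DMb1. H2-DMb2 (4690 and 3730 against 5469 and 5797) and Ciita (537 and 470 against 576 and 555) were lower there. Cd74, H2-Dma and H2-Ob showed no such split. In SE 4 the endothelial and fibroblast list summed to 118950, against 3403 to 27837 in the other SE tumors. Leaving out each SE or PBS tumor in turn gave 0 members called in SE against PBS each time. Among the GLA-SE tumors, the third, highest for all 9 members, also had the highest monocyte and macrophage sum (125438 against 84575 to 89907) and a neutrophil sum of 9037 against 825 to 2193. Lyz2 (28111 to 95728 deposited counts over all tumors) and S100a8 (62 to 7069) weigh most in these sums. By mean log2 normalized count GLA-SE 3 was the highest GLA-SE tumor in both lists (10.82 and 7.04), and also in the B cell list (10.12). In PBS 2 the B cell sum was the highest of its group and the T cell sum, 764, the lowest.

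Ratios of 2 members within a tumor do not depend on the scale. H2-Ob over H2-Dma, the beta chain of DO over the alpha chain of DM, was a log2 ratio of −1.69, −1.69, −1.57 and −1.66 in the PBS tumors, −1.46, −1.72, −1.68 and −1.59 in the SE tumors and −1.97, −2.01, −1.92 and −2.16 in the GLA-SE tumors. Every GLA-SE tumor was thus under every other tumor. The mean difference was −0.36 against PBS and −0.40 against SE, each with the smallest exact permutation p possible (0.0286), which became 0.143 after adjustment over the 15 ratio tests and did not pass. SE and PBS differed by 0.04 (exact p = 0.657). Leaving out any tumor left the difference between −0.40 and −0.31 against PBS and between −0.44 and −0.35 against SE.

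H2-Ab1 over H2-Aa, the beta over the alpha chain of I-A, was higher by 0.14 with GLA-SE than with PBS, without overlap (exact permutation p = 0.0286, adjusted p = 0.143). Leaving out a tumor kept the difference between 0.12 and 0.16, and the unadjusted p stayed under 0.05 in 4 of the 8 cases, but not without PBS 2, 3 or 4 or GLA-SE 4 (exact permutation p = 0.0571 each). The tumors had log2 ratios of −1.75, −1.67, −1.70 and −1.63 with GLA-SE and −1.77, −1.84, −1.84 and −1.85 with PBS. Cd74 over H2-Ab1 was lower by a log2 difference of −0.18 with GLA-SE than with PBS (exact p = 0.0571, adjusted p = 0.171), and the groups overlapped. Ciita over H2-Ab1, the transactivator over one of its targets, differed by 0.07 with GLA-SE and 0.02 with SE, both against PBS, under SDs of 0.10 to 0.21. H2-DMb2 over H2-DMb1 differed by 0.04 in GLA-SE against PBS under SDs of 0.30 and 0.39, and the low counts of H2-DMb1 limit it.

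**Figure D4:**
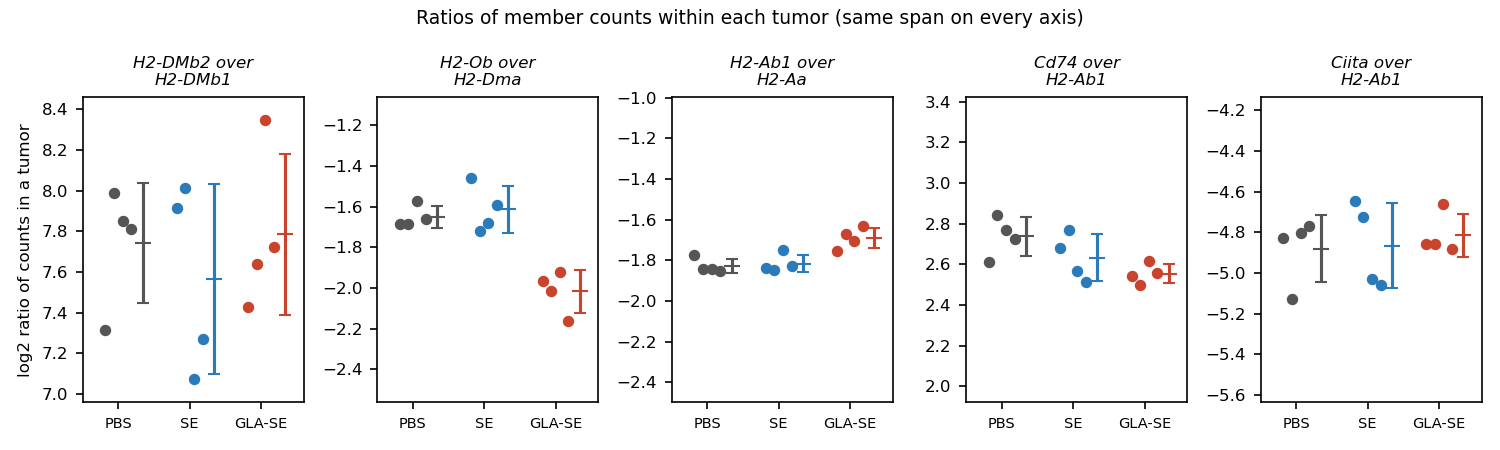
Log2 ratio of the counts of 2 genes within each tumor (vertical axes, 1 ratio a panel, equal spans) for the 4 PBS, 4 SE and 4 GLA-SE tumors, with the mean ± SD of each group beside the points. The ratio of H2-Ob over H2-Dma is lower in every GLA-SE tumor than in any other, while Ciita over H2-Ab1 overlaps between the groups.

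Across the 12 tumors the members moved together, with Pearson's r of 0.72 to 0.99 between the log2 normalized counts of the 36 pairs. Such values share the group differences, the depth and the reference scale of each tumor. For deviations from the group means, which still share the depth and the reference scale, the range was 0.25 to 0.98. GLA-SE 3 was the highest and PBS 2 the lowest of its group for all 9 members, and values of r without these tumors are not given. Of 661 other panel genes with a mean deposited count of 20 or more, those most like the mean of the members over 12 tumors were Nlrc5 (r = 0.965), Hif1a (0.965), Cd274 (0.959), Cybb (0.952) and Irf4 (0.951), beside a median of 0.578 over all 661. Nlrc5 is the transactivator of class I genes, and Cd274 encodes PD-L1. By deviations from group means the nearest were H2-Ea-ps (r = 0.946), Cd69 (0.927), Slamf7 (0.889), Nlrc5 (0.889) and H2-M3 (0.889), beside a median of 0.190. H2-Ea-ps is itself a class II gene, described next.

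The panel also holds 7 genes that work with class II molecules, among them H2-Ea-ps, whose name comes from strains that lack a working I-E alpha chain, which the d haplotype has. H2-Ea-ps was counted at 20130, 14048, 21308 and 19545 with PBS, at 27938, 30207, 34572 and 31071 with SE, and at 34477, 36560, 65370 and 27270 with GLA-SE. The PBS tumors were below all others, and the SE and GLA-SE tumors overlapped. It rose by 1.13 ± 0.27 in GLA-SE against PBS (edgeR adjusted p = 0.00643), and the SE tumors exceeded the PBS tumors by 0.72 ± 0.16 (adjusted p = 0.256). Relative to the reference genes all 7 partners rose in GLA-SE against PBS, with a median of 1.13. The endosomal proteases Ctss, which trims the invariant chain, Ctsl and Ctsh rose by 1.45, 1.77 and 0.56 on the log2 scale, and Cd83, which keeps class II molecules at the surface, rose by 1.41. Cd4, the co-receptor for class II, rose by 0.79, a call that was lost without PBS 3, and Lag3, which also binds class II, rose by 1.00. With SE against PBS or GLA-SE against SE 0 of the 7 passed in edgeR. Ctsl, which macrophages and fibroblasts also make, had 566 and 540 normalized counts in SE 1 and 2, within the PBS range of 530 to 902, and 5063 and 10723 in SE 3 and 4, so the SE and PBS tumors overlapped.

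Interferon gamma, through its receptor, JAK kinases and IRF1, is the classical inducer of Ciita. In GLA-SE against PBS 8 of 9 genes of this list rose on the reference scale, with a median of 0.80, and Creb1, at 0.12 (edgeR adjusted p = 0.358), did not pass. Irf1 had 2756, 1659, 1784 and 2503 with PBS, 2560, 2287, 2273 and 2558 with SE, and 3736, 4761, 6497 and 4813 with GLA-SE. PBS and SE tumors were mixed, and the GLA-SE tumors lay apart. Irf1 passed both against PBS (by 1.19, edgeR adjusted p = 0.00186) and against SE (by 1.03, adjusted p = 0.0326), the only gene of the list to do so. The call against SE was lost without any one of GLA-SE 2 and 4 and SE 1, 2 and 3, while the log2 fold changes over the 8 such fits were 0.87 to 1.15. It was also lost on the B cell scale (0.97), without rescaling (1.05), with TMM (0.52), DESeq2's own size factors (0.44) or the panel median (0.034) and with Benjamini-Yekutieli adjustment, and the difference was −0.62 on the monocyte and macrophage scale. Against PBS the SE tumors differed by 0.15 ± 0.18.

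Ifng itself had normalized counts of 12.1 to 27.5 with PBS, 20.4 to 29.9 with SE and 38.7 to 79.5 with GLA-SE. Its deposited counts were low, 13 to 34 with PBS, 11 to 39 with SE and 40 to 72 with GLA-SE, beside the threshold of 20. At these low counts it rose by 1.34 ± 0.31 in GLA-SE against PBS (edgeR adjusted p = 0.00602). Prdm1, a repressor of Ciita in plasma cells, rose by 2.02 ± 0.25 against PBS (adjusted p = 0.000345). Jak2 rose by 1.44, Jak1 by 0.80 and Ifngr1 by 0.62, while the coactivator genes Ep300 and Crebbp rose by 0.45 and 0.34.

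The class I genes give the counterpart on the other presentation pathway. All 8 rose in GLA-SE against PBS on the reference scale, with a median of 0.97, among them H2-K1 by 1.23, H2-D1 by 1.27, the peptide transporter gene Tap1 by 0.96 and Nlrc5 by 1.24. None of the 8 passed in SE against PBS or in GLA-SE against SE. These 3 lists gave 23 of 24 calls in GLA-SE against PBS, beside 68.4% of the panel, and none of them was set apart from the panel by a test. Of the 24, 18 turned below 0 on the panel-median scale and 23 on the monocyte and macrophage scale, where Prdm1 was the exception at 0.08.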

How the data were processed

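The members and the gene lists were chosen with earlier results of these data known. The authors deposited a single table of counts, whole numbers of barcoded probes for 770 genes in 12 tumors. The methods describe normalization in nSolver, but totals and reference genes differed between tumors, so the values were taken as raw. There was no alignment, and the probe sequences were not used here. Of 20 reference genes, geNorm kept 16 over all 12 tumors. The other 750 genes were compared between 4 and 4 tumors with edgeR 4.0.16 in R 4.3.3 (quasi-likelihood test, Benjamini-Hochberg threshold 0.05, no filter on low counts, no covariates). A pseudocount of 1 was used for ratios, correlations and exact permutation tests. The genes named are the members, the genes of the 3 pathway lists, those most like the members and, where a result turns on them, cell markers. Some genes of these lists are not reported here. The fits were tested on simulated data. Alternatives were other scalings, DESeq2 1.42.0, limma 3.58.1 with pseudocounts of 1 and 10, a filter of 20 counts in 4 tumors, all 12 tumors in a single fit, the replicate number as a block, the Benjamini-Yekutieli procedure, and fits without each tumor in turn. Precision is limited by 4 tumors a group, and for genes near 20 counts by counting error. Figures were drawn with matplotlib 3.10.9.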

Additional observations from a re-analysis of the deposited data

Results flagged for a closer look

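In each of the 27 sets of 4 tumors (9 members in 3 groups) the highest and lowest tumor were compared with the rest, and 7 sets had a tumor whose gap to the others exceeded Dixon's 95% critical value, where chance alone gives about 1 in 20, or 1.35 of 27. The members rise and fall together, so these sets are not independent. In the third GLA-SE tumor 5 members stood apart on the high side. H2-Ab1 was at 34034 normalized counts there against 20114 to 22221 in the other GLA-SE tumors. Cd74 was at 208551 against 117405 to 125758. H2-Dma was at 6552 against 3899 to 4330, H2-DMb2 at 13276 against 5828 to 6918, and Ciita at 1346 against 680 to 766. Ciita also stood apart in the second PBS tumor, at 276 against 418 to 442. H2-DMb1 was at 33.6 in the third SE tumor against 21.5 to 22.2, all near the background threshold of 20 counts.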

How the results depend on the processing

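For GLA-SE against PBS the panel had 513 genes called higher, 3 lower, and 9 members higher. Higher calls fell to 61 with panel-median scaling, 193 with TMM, 200 with DESeq2's own size factors, 22 with monocyte and macrophage scaling (307, 133, 150 and 525 lower in these 4), 255 with all 12 tumors in a single fit and 307 with Benjamini-Yekutieli adjustment. The members called higher were 0 with panel-median scaling, 0 with monocyte and macrophage scaling, 2 with TMM and 1 with DESeq2's own size factors. For SE against PBS, 0 genes called higher became 6 with DESeq2's own size factors (5 lower) and 47 with its reference size factors (6 lower, 3 members higher). For GLA-SE against SE, 16 genes called higher became 0 with panel-median, 3 with TMM, 4 with B cell, 0 with monocyte and macrophage (14 lower) and 88 with no scaling (1 lower), 57 with DESeq2's own (25 lower) and 101 with its reference size factors (7 lower, 3 members higher), 77 with all 12 tumors (2 lower, 3 members higher), and 0 with Benjamini-Yekutieli adjustment. It was 52 with neither GLA-SE 3 nor SE 4, an alternative chosen after seeing the data, where H2-Ob was −0.025. Leaving out each tumor gave 440 to 501 higher genes and 8 to 9 members for GLA-SE against PBS, 0 genes for SE against PBS and 4 to 104 genes (0 members) for GLA-SE against SE. The tumors were not treated as paired by replicate number. Same-numbered deviations correlated at −0.13 to 0.13, −0.13 to 0.19 and −0.25 to 0.15 in the 3 comparisons, over 0.1 in 1 of 4 pairs each. So few pairs cannot exclude that same-numbered tumors were handled together. With the replicate block the panel counts were 437, 0 and 0, and 8, 0 and 0 members. On the log2 scale, the following differences changed direction. In GLA-SE against PBS this was so under panel-median scaling for H2-Aa (−0.38), H2-Ab1 (−0.24), H2-Eb1 (−0.16), Cd74 (−0.42), H2-Dma (−0.42), H2-DMb1 (−0.46), H2-DMb2 (−0.40), H2-Ob (−0.79), Ciita (−0.17), H2-Ea-ps (−0.22), Ctsh (−0.74), Cd4 (−0.48), Lag3 (−0.23), Ifngr1 (−0.67), Jak1 (−0.51), Irf1 (−0.10), Creb1 (−1.18), Crebbp (−0.96), Ep300 (−0.85), H2-K1 (−0.093), H2-D1 (−0.044), Tap1 (−0.33), Tap2 (−0.58), Tapbp (−0.32), Psmb8 (−0.95), Psmb9 (−0.61) and Nlrc5 (−0.062). Under monocyte and macrophage scaling it was so for H2-Aa (−0.99), H2-Ab1 (−0.86), H2-Eb1 (−0.77), Cd74 (−1.04), H2-Dma (−1.04), H2-DMb1 (−1.07), H2-DMb2 (−1.02), H2-Ob (−1.40), Ciita (−0.79), H2-Ea-ps (−0.83), Ctss (−0.47), Ctsl (−0.15), Ctsh (−1.34), Cd83 (−0.58), Cd4 (−1.08), Lag3 (−0.85), Ifng (−0.58), Ifngr1 (−1.27), Jak1 (−1.12), Jak2 (−0.52), Irf1 (−0.72), Creb1 (−1.78), Crebbp (−1.56), Ep300 (−1.44), H2-K1 (−0.71), H2-D1 (−0.66), Tap1 (−0.94), Tap2 (−1.18), Tapbp (−0.93), Psmb8 (−1.55), Psmb9 (−1.22) and Nlrc5 (−0.68). Under TMM it was so for H2-Ob (−0.26), Ctsh (−0.22), Ifngr1 (−0.15), Creb1 (−0.65), Crebbp (−0.43), Ep300 (−0.32), Tap2 (−0.063), Psmb8 (−0.43) and Psmb9 (−0.091). Under DESeq2's own size factors it was so for H2-Ob (−0.31), Ctsh (−0.27), Cd4 (−0.016), Ifngr1 (−0.20), Jak1 (−0.038), Creb1 (−0.70), Crebbp (−0.48), Ep300 (−0.37), Tap2 (−0.11), Psmb8 (−0.48) and Psmb9 (−0.14). Without rescaling it was so for Creb1 (−0.18). In SE against PBS this was so under panel-median scaling for H2-Dma (−0.043), H2-DMb1 (−0.0064) and H2-Ob (−0.0029). Under monocyte and macrophage scaling it was so for H2-Eb1 (−0.017) and H2-DMb1 (−0.084). Under TMM it was so for H2-Dma (−0.051) and H2-Ob (−0.0094). Under DESeq2's own size factors it was so for H2-Dma (−0.039). Without rescaling it was so for H2-Dma (−0.093), H2-DMb2 (−0.042) and H2-Ob (−0.036). In GLA-SE against SE this was so under panel-median scaling for H2-Aa (−0.48), H2-Ab1 (−0.35), H2-Eb1 (−0.16), Cd74 (−0.47), H2-Dma (−0.38), H2-DMb1 (−0.45), H2-DMb2 (−0.42), H2-Ob (−0.78) and Ciita (−0.37). Under monocyte and macrophage scaling it was so for H2-Aa (−1.12), H2-Ab1 (−0.98), H2-Eb1 (−0.75), Cd74 (−1.13), H2-Dma (−1.05), H2-DMb1 (−1.002), H2-DMb2 (−1.13), H2-Ob (−1.44), Ciita (−1.04) and Irf1 (−0.62). Under TMM it was so for H2-Aa (−0.0023), H2-DMb1 (−0.024) and H2-Ob (−0.28). Under DESeq2's own size factors it was so for H2-Aa (−0.080), Cd74 (−0.058), H2-DMb1 (−0.094) and H2-Ob (−0.36). The scalings differ by construction by 1 factor for each tumor. The call of Irf1 in GLA-SE against SE was lost with the replicate block (adjusted p = 0.158) and without GLA-SE 2, GLA-SE 4, SE 1, SE 2 or SE 3, and the log2 fold changes over the 8 such fits were 0.87 to 1.15. The ratios within a tumor kept their direction with pseudocounts of 0 and 10, but leaving out a tumor turned small ones, which ranged from −0.14 to 0.16 for H2-DMb2 over H2-DMb1 in GLA-SE against PBS, −0.012 to 0.074 for H2-Ob over H2-Dma in SE against PBS, −0.0088 to 0.031 for H2-Ab1 over H2-Aa in SE against PBS, −0.015 to 0.10 for Ciita over H2-Ab1 in GLA-SE against PBS, −0.065 to 0.081 for Ciita over H2-Ab1 in SE against PBS and −0.015 to 0.12 for Ciita over H2-Ab1 in GLA-SE against SE.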
